A study of Mus musculus with 8 samples.

Results

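The genes that carry vesicles to the membrane and release their contents were followed in the enteric neural crest-derived cells (ENCDCs) of the fetal mouse bowel. The members were taken by symbol alone: synaptotagmins (*Syt*), vesicle-associated membrane proteins (*Vamp*), syntaxins (*Stx*), syntaxin-binding proteins (*Stxbp*), *Snap23*, *Snap25*, *Snap29*, *Snap91*, synapsins (*Syn1* to *Syn3*), *Sv2a* to *Sv2c*, complexins (*Cplx*), *Rims*, *Rab3*, *Unc13*, *Syp*, *Synpr* and *Sypl*. The rule took 69 of the 29092 genes in the table, and no measured value entered it. Bowel from stomach to anus was collected at E13.5 from embryos of heterozygous *Ednrb-EGFP* by C57BL/6J matings, and cells were sorted into GFP+ ENCDCs and GFP- gut cells. *Ednrb-EGFP* is a reporter transgene in which *Ednrb* regulatory sequence drives GFP, both groups came from embryos that carry it, and the genotype label of every sample was wild-type. mRNA was sequenced from 4 libraries of each group, made from 750 pg of RNA each, with RNA pooled from several samples where needed, so that p-values measure the spread between these libraries.

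Neurotransmitter leaves a neuron when a vesicle fuses with the plasma membrane, and the force comes from SNARE proteins: a vesicle SNARE (a Vamp protein) zips together with a syntaxin and a SNAP25-type protein on the target membrane. Synaptotagmins sense the calcium that enters with an action potential, complexins clamp the partly zipped complex, Munc18 proteins guide the syntaxin, and Unc13 and Rims proteins prime vesicles at the release site. Every cell type moves membrane with relatives of these proteins, so most families hold both neuronal genes and genes used in secretion or endosome traffic elsewhere.

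The deposited values were whole-number read counts of 13250893 to 13267220 per library after the authors' normalization, which does not show the sequenced depth, and are given below as normalized counts, which are counts divided by TMM scaling factors. All 10 enteric neural crest markers and all 10 pan-neuronal markers were higher in ENCDCs, which fits the label. *Ednrb* is among the crest markers, and it gives no support here, since the sort used GFP driven by its regulatory sequence. *Ret*, the GDNF receptor, ran from 10403 to 16376 normalized counts in ENCDC libraries and from 91.1 to 165 in gut libraries. Markers of smooth muscle and mesenchyme summed to 4585 to 27245 in ENCDC libraries and 190050 to 231000 in gut libraries, and the highest of the ENCDC sums was replicate 3, where the mean of the other 3 was 6947. ENCDC replicate 3 also stood apart on the second principal component, at -160 against 45.0 to 62.6 for the other ENCDC libraries. In bulk RNA, fewer cells of a type and less RNA per cell cannot be told apart.

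More of the release genes were higher than lower in ENCDCs. The share called higher was above that of all tested genes, and the share called lower was close to it. Of the 69 members, 68 had enough counts to be tested, and *Syt15*, with 2 counts over the ENCDC libraries and 3 over the gut libraries, did not. edgeR called 30 members higher in ENCDCs (44.1% of those tested) where 17.1% of all 18866 tested genes were called higher. It called 16 members lower (23.5%) where 20.9% of all tested genes were called lower, and it called 22 neither way. The ENCDC and gut libraries did not overlap for 42 members (61.8%), against 38.2% of all tested genes. Across the tested members the median log2 fold change was 0.41, against -0.04 for all tested genes. Of the 30 higher members, 26 differed by at least 2-fold and 11 by at least 10-fold. Of the 16 lower members, 11 differed by at least 2-fold.

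**Figure D1:**
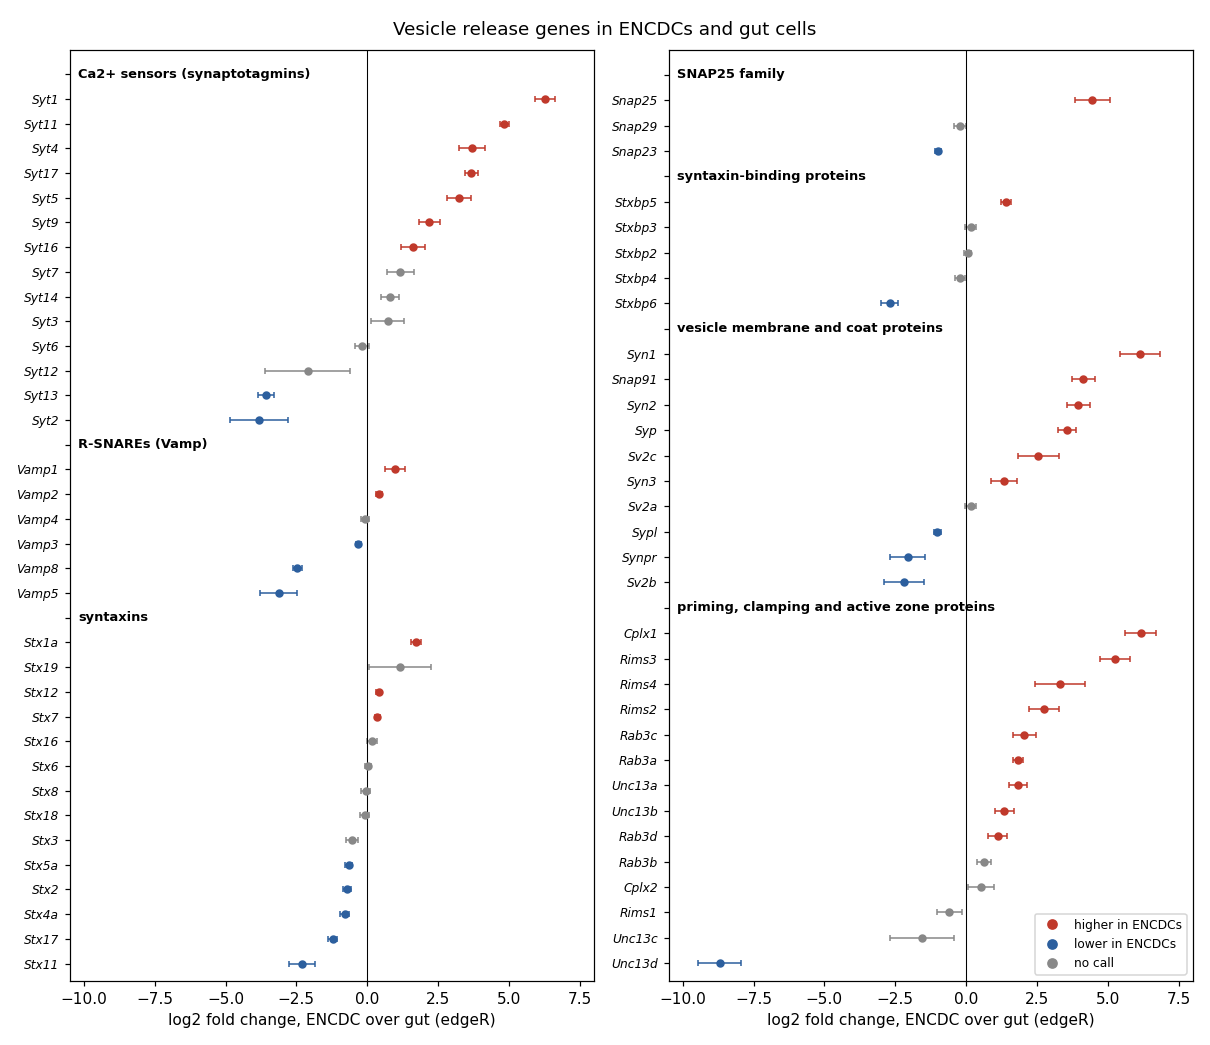
Fold change on the log2 scale, ENCDC libraries over gut libraries (horizontal axis), for 66 of the tested vesicle release genes, grouped by role and ordered by size; points are edgeR estimates, bars are standard errors, and colours mark genes called higher, lower or not called at an adjusted p under 0.05. *Syt1* (6.26), *Cplx1* (6.16) and *Syn1* (6.12) lie farthest to the right, *Unc13d* farthest to the left.

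Of 14 tested synaptotagmins, not all of them calcium sensors, 7 were higher in ENCDCs, 2 were lower and 5 were not called. Their median log2 fold change was 1.39. *Syt1*, the sensor for fast synchronous release, gave 3549, 2995, 2184 and 4071 normalized counts in ENCDC replicates 1 to 4 and 53.4, 33.5, 64.1 and 14.9 in gut replicates 1 to 4 (log2 fold change 6.26 ± 0.36 SE, edgeR adjusted p = 2.27e-07). *Syt11*, a synaptotagmin that does not bind calcium, gave 6453, 7080.2, 5728 and 7449 normalized counts in ENCDCs and 222, 297, 243 and 172 in gut cells (log2 fold change 4.84 ± 0.17 SE, edgeR adjusted p = 6.28e-09). Each ENCDC library was far above each gut library for both genes, and ENCDC replicate 3 was the lowest of the ENCDC libraries for both.

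*Syt17* gave 767, 843, 747 and 837 normalized counts in ENCDCs and 41.8, 51.2, 71.1 and 85.2 in gut cells (log2 fold change 3.68 ± 0.22 SE, edgeR adjusted p = 3.39e-07). *Syt9*, a calcium sensor of synaptic and dense-core vesicles, gave 468, 483, 347 and 643 normalized counts in ENCDCs and 35.0, 119, 141 and 129 in gut cells (log2 fold change 2.19 ± 0.37 SE, edgeR adjusted p = 0.000738). The groups did not overlap for either gene, and the gut mean was 21.8% of the ENCDC mean for *Syt9* and 7.80% for *Syt17*. The other higher synaptotagmins were *Syt4* (log2 fold change 3.70), *Syt5* (3.24) and *Syt16* (1.61).

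*Syt13* and *Syt2* went the opposite way. *Syt13*, another member without calcium binding, gave 16.2, 22.4, 26.1 and 25.8 normalized counts in ENCDCs and 316, 250.1, 272 and 244 in gut cells (log2 fold change -3.57 ± 0.27 SE, edgeR adjusted p = 1.67e-06). *Syt2*, a fast sensor that does the work of *Syt1* at many hindbrain and motor synapses, gave 2.03, 15.3, 0 and 0 normalized counts in ENCDCs and 65.1, 54.2, 61.2 and 71.3 in gut cells (log2 fold change -3.83 ± 1.03 SE, edgeR adjusted p = 0.0132). Gut libraries were above all ENCDC libraries for both genes, and the ENCDC counts of *Syt2* came mostly from replicate 2. Without that library the *Syt2* log2 fold change was -6.29 (edgeR adjusted p = 0.000507). *Syt7*, the slow, high-affinity sensor, gave 115, 102, 27.1 and 144 normalized counts in ENCDCs and 39.8, 48.3, 40.5 and 43.6 in gut cells (log2 fold change 1.17 ± 0.47 SE, edgeR adjusted p = 0.0731), with replicate 3 below every gut library. Without ENCDC replicate 3 the *Syt7* log2 fold change was 1.48 (edgeR adjusted p = 0.00253). *Syt3*, *Syt6*, *Syt12* and *Syt14* were not called, at log2 fold changes from -2.10 to 0.80.

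Levels of different genes were compared per kilobase of exon, as normalized counts per kb. Summed over the family, synaptotagmin level was 2231 ± 312 per kb in ENCDCs (SD, n = 4) and 272 ± 19.4 in gut cells (SD, n = 4), and its make-up differed. *Syt11* held 57.7% of the ENCDC sum and *Syt1* 17.0%, whereas in gut cells *Syt13* held 26.7%, *Syt6* 20.1%, *Syt11* 16.6% and *Syt1* 1.86%. *Syt11* was therefore the most abundant synaptotagmin in ENCDCs, with a lowest share of 55.4% in any ENCDC library against a highest share of 19.1% for *Syt1*. In gut cells the shares of *Syt13* and *Syt6* overlapped between libraries.

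The vesicle SNAREs were split. Of the 6 *Vamp* genes, 2 were higher, 3 were lower and 1 was not called (median log2 fold change -0.20). *Vamp2*, the vesicle SNARE of most synapses, gave 1298, 1296, 1165 and 1332 normalized counts in ENCDCs and 1033, 921, 839 and 1037 in gut cells (log2 fold change 0.41 ± 0.11 SE, edgeR adjusted p = 0.0114). *Vamp3*, its relative in constitutive and endosomal traffic, gave 1888, 1759, 1746 and 1695 normalized counts in ENCDCs and 2182, 2509, 2056 and 2057 in gut cells (log2 fold change -0.31 ± 0.094 SE, edgeR adjusted p = 0.0226). Both pairs of groups were separate, yet by 1.33-fold and 1.24-fold only, and neither call held in a test against a 1.5-fold change. The *Vamp3* call was also lost without ENCDC replicate 2 or 4.

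*Vamp8*, a vesicle SNARE of endosomes and of secretory granules in non-neuronal cells, gave 249.8, 207, 270.1 and 198 normalized counts in ENCDCs and 1086, 1465, 1203 and 1358 in gut cells (log2 fold change -2.46 ± 0.15 SE, edgeR adjusted p = 3.80e-07). The groups lay far apart for this gene. *Vamp1*, a synaptic relative of *Vamp2*, gave 225, 124, 134 and 185 normalized counts in ENCDCs and 139, 62.0, 62.2 and 74.3 in gut cells (log2 fold change 0.98 ± 0.34 SE, edgeR adjusted p = 0.0423). Its groups overlapped at gut replicate 1, and its call was lost in 8 of 16 alternative analyses, without gut replicate 2, 3 or 4 or ENCDC replicate 1 or 4 among them. *Vamp5*, a SNARE known from muscle, was lower at a log2 fold change of -3.13 on 3.05 to 25.4 normalized counts in ENCDC libraries and 83.2 to 198 in gut libraries. *Vamp4*, of the trans-Golgi network, was not called (-0.09). Per kilobase, *Vamp3* was the leading vesicle SNARE in both groups (49.6% of the family in ENCDCs, 42.4% in gut cells). *Vamp2* held 27.1% in ENCDCs and 14.1% in gut cells, and *Vamp8* held 8.09% and 30.7%.

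The syntaxins had the median log2 fold change closest to 0 of the roles, at -0.05. edgeR called 3 of 15 higher and 5 lower, and the summed level was 2307 ± 73.1 per kb in ENCDCs (SD, n = 4) and 2370 ± 130 in gut cells (SD, n = 4). *Stx1a*, the plasma membrane syntaxin of synapses, gave 481, 427, 585 and 569 normalized counts in ENCDCs and 159, 177, 135 and 160.4 in gut cells (log2 fold change 1.71 ± 0.17 SE, edgeR adjusted p = 1.85e-05). Each ENCDC library was above each gut library.

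*Stx12*, an endosomal syntaxin, gave 1942, 2050.2, 1955 and 1961 normalized counts in ENCDCs and 1596, 1680.1, 1419 and 1298 in gut cells (log2 fold change 0.40 ± 0.10 SE, edgeR adjusted p = 0.00904). *Stx7*, of late endosomes, gave 1761, 1849, 1877 and 1536 normalized counts in ENCDCs and 1253, 1405, 1384 and 1426 in gut cells (log2 fold change 0.36 ± 0.099 SE, edgeR adjusted p = 0.0141). Both were separate between groups, by 1.32-fold and 1.28-fold, and neither call held against a 1.5-fold change. *Stx12* (26.9% of the syntaxin level per kb) and *Stx7* (17.0%) ranked first and second in ENCDCs, with *Stx1a* at 8.39% there and 2.50% in gut cells.

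*Stx5a*, of the Golgi, gave 1275, 1513, 1627 and 1119.8 normalized counts in ENCDCs and 2141, 2228, 2097 and 2285 in gut cells (log2 fold change -0.66 ± 0.12 SE, edgeR adjusted p = 0.00126). *Stx2*, a plasma membrane syntaxin of epithelia, gave 746, 667, 723 and 991 normalized counts in ENCDCs and 1226, 1554, 1182 and 1168 in gut cells (log2 fold change -0.71 ± 0.15 SE, edgeR adjusted p = 0.00302). *Stx4a*, which drives regulated secretion in many non-neuronal cells, gave 311, 335, 274 and 255 normalized counts in ENCDCs and 478, 510.1, 472 and 578 in gut cells (log2 fold change -0.79 ± 0.15 SE, edgeR adjusted p = 0.00175). All ENCDC libraries were below all gut libraries for the 3 genes, and none of the 3 calls held against a 1.5-fold change. *Stx17*, of autophagosomes, and *Stx11*, of cytotoxic granules, were lower by more (log2 fold changes -1.22 and -2.30). *Stx3*, a syntaxin of apical membranes in epithelia, gave 169.6, 158, 172 and 197 normalized counts in ENCDCs and 237, 285, 299 and 181 in gut cells (log2 fold change -0.52 ± 0.21 SE, edgeR adjusted p = 0.0732), with gut replicate 4 inside the ENCDC range. *Stx3*, *Stx6*, *Stx8*, *Stx16*, *Stx18* and *Stx19* were among the 7 syntaxins that were not called. *Stx18* shares 574 exon bases with *Nsg1*, a more abundant gene on the opposite strand, and the library kits do not keep strand, so reads there cannot be assigned to one of the pair.

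The SNAP25 family held 1 higher gene, 1 lower gene and 1 that was not called. *Snap25*, the SNARE of synapses, gave 784, 923, 242 and 835 normalized counts in ENCDCs and 28.2, 6.89, 74.0 and 17.8 in gut cells (log2 fold change 4.45 ± 0.61 SE, edgeR adjusted p = 0.000182). *Snap23*, its relative in most other tissues, gave 800.1, 733, 681 and 731 normalized counts in ENCDCs and 1506, 1429.9, 1412 and 1498 in gut cells (log2 fold change -0.99 ± 0.097 SE, edgeR adjusted p = 1.45e-05). *Snap29*, which works in endosome and autophagosome fusion, gave 315, 421, 225 and 387 normalized counts in ENCDCs and 461, 459, 335 and 319 in gut cells and was not called (log2 fold change -0.22 ± 0.22 SE, edgeR adjusted p = 0.473). *Snap25* in ENCDC replicate 3 was 28.6% of the mean of the other ENCDC libraries, though still above every gut library. Without gut replicate 3, the highest gut library for *Snap25*, the log2 fold change was 5.29 (edgeR adjusted p = 9.48e-05). Per kilobase, *Snap23* was the largest part of the family in ENCDCs (47.6%, against 26.3% for *Snap25*), and *Snap25* held 1.04% in gut cells.

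**Figure D2:**
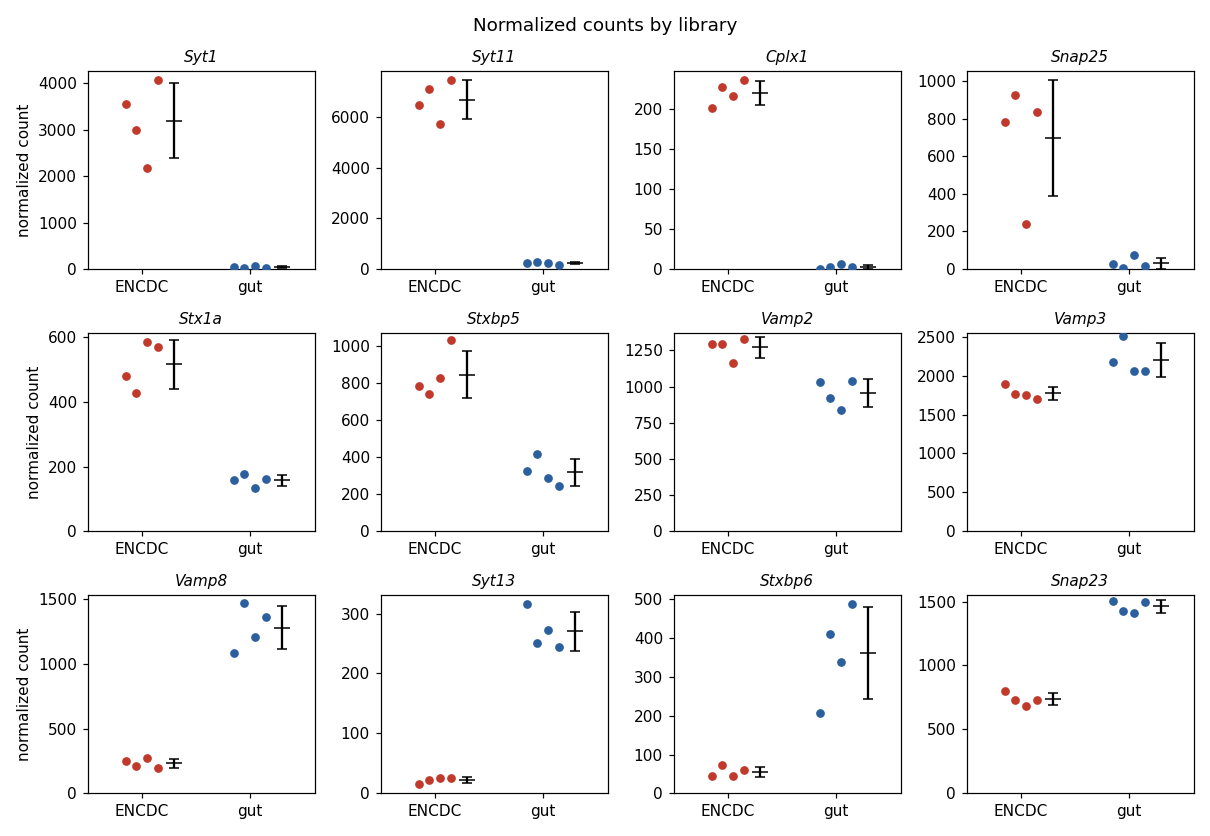
Normalized counts of 12 vesicle release genes in the 4 ENCDC (red) and 4 gut (blue) libraries; points are libraries, the black mark and bar are the mean and SD, and every axis starts at 0. *Syt1*, *Syt11*, *Cplx1* and *Snap25* lie low on their own axes in gut cells, where *Syt11* still gave 172 to 297. *Vamp2* and *Vamp3* differ by small steps in opposite directions, and *Vamp8*, *Syt13*, *Stxbp6* and *Snap23* are lower in ENCDCs.

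Syntaxin-binding proteins gave 2 higher, 1 lower and 3 not called of 6. *Stxbp5* (tomosyn), which binds syntaxin in place of a vesicle SNARE, gave 787, 742, 825 and 1032 normalized counts in ENCDCs and 326, 415, 287 and 246 in gut cells (log2 fold change 1.41 ± 0.18 SE, edgeR adjusted p = 0.000108). *Stxbp6* (amisyn), another decoy for the vesicle SNARE, gave 45.7, 72.2, 44.2 and 61.0 normalized counts in ENCDCs and 208, 409.7, 337 and 488 in gut cells (log2 fold change -2.69 ± 0.30 SE, edgeR adjusted p = 3.88e-05). Neither gene's groups overlapped. *Stxbp3* (Munc18-3), which serves non-neuronal secretion, gave 462, 513, 543 and 448 normalized counts in ENCDCs and 563, 282, 443 and 463 in gut cells, a range in gut cells that took in every ENCDC library. *Stxbp2* (log2 fold change 0.06), *Stxbp3* (0.17) and *Stxbp4* (-0.22) were not called.

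Proteins of the vesicle membrane and coat had the highest median, 1.94 on the log2 scale, with 6 of 10 higher and 3 lower. *Syn1*, which tethers vesicles in the reserve pool, gave 258, 314, 433 and 532 normalized counts in ENCDCs and 10.7, 10.8, 0 and 0 in gut cells (log2 fold change 6.12 ± 0.71 SE, edgeR adjusted p = 4.76e-05). Its relative *Syn2* gave 258, 351, 270.1 and 396 normalized counts in ENCDCs and 35.9, 8.86, 11.8 and 24.8 in gut cells (log2 fold change 3.96 ± 0.41 SE, edgeR adjusted p = 2.26e-05). *Snap91* (AP180), which helps to form the clathrin coat that retrieves vesicles, gave 750.4, 984, 459 and 1116 normalized counts in ENCDCs and 42.8, 89.6, 29.6 and 26.7 in gut cells (log2 fold change 4.13 ± 0.41 SE, edgeR adjusted p = 1.52e-05). All 3 were at 6.39% or less of their ENCDC mean in gut cells, and *Syn1* was at 0 in gut replicates 3 and 4.

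*Syp* (synaptophysin), an abundant vesicle membrane protein, gave 346, 299, 187 and 314 normalized counts in ENCDCs and 30.1, 14.8, 29.6 and 21.8 in gut cells (log2 fold change 3.57 ± 0.32 SE, edgeR adjusted p = 7.52e-06). *Synpr* (synaptoporin) gave 10.2, 10.2, 36.1 and 21.7 normalized counts in ENCDCs and 91.3, 22.7, 98.7 and 114 in gut cells (log2 fold change -2.06 ± 0.61 SE, edgeR adjusted p = 0.0217), and *Sypl* (pantophysin), the widely expressed member of the family, gave 863, 817, 602 and 780.0 normalized counts in ENCDCs and 1590.5, 1396, 1650.0 and 1534 in gut cells (log2 fold change -1.01 ± 0.13 SE, edgeR adjusted p = 9.01e-05). So the family held one gene higher and the other two lower, with an overlap between groups for *Synpr* at gut replicate 2. The *Synpr* call was lost in 6 of 16 alternative analyses, among them those without ENCDC replicate 1 or 2 or gut replicate 1, 3 or 4.

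*Sv2a*, the most widely used SV2 protein of the vesicle membrane, gave 294, 346, 259 and 396 normalized counts in ENCDCs and 265, 256, 348 and 292 in gut cells and was not called (log2 fold change 0.16 ± 0.19 SE, edgeR adjusted p = 0.558). *Sv2b* gave 89.4, 28.5, 1.00 and 63.0 normalized counts in ENCDCs and 249.7, 223, 171 and 186 in gut cells (log2 fold change -2.19 ± 0.70 SE, edgeR adjusted p = 0.03), and ENCDC replicate 3 held 1.00 normalized count of it. Its call was lost in 7 of 16 alternative analyses, among them each that left out 1 gut library and the one without ENCDC replicate 2. *Sv2c* was higher at a log2 fold change of 2.55 on low counts, 40.2 to 132 in ENCDC libraries and 0.972 to 24.7 in gut libraries, and leaving out ENCDC replicate 4 ended its call (edgeR adjusted p = 0.0512). *Syn3* was higher at 1.34, but 10 of 16 alternative analyses lost the call, among them those without ENCDC replicate 1, 2 or 4 or gut replicate 1, 2 or 4. *Syn3* shares 1733 exon bases with *Timp3*, a more abundant gene on the opposite strand that had mean counts of 1236 in ENCDCs and 2788 in gut cells.

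Priming, clamping and active zone proteins gave the largest share of higher calls, 9 of 14 (64.3%), with 1 lower and 4 not called (median log2 fold change 1.59). *Cplx1*, the complexin of most fast synapses, gave 201, 227, 216 and 236 normalized counts in ENCDCs and 0, 2.95, 5.92 and 2.97 in gut cells (log2 fold change 6.16 ± 0.54 SE, edgeR adjusted p = 5.76e-06), and *Cplx2* gave 68.0, 65.1, 26.1 and 42.4 normalized counts in ENCDCs and 35.0, 39.4, 31.6 and 34.7 in gut cells and was not called (log2 fold change 0.52 ± 0.45 SE, edgeR adjusted p = 0.403). *Rims3*, a short Rim protein, gave 754, 1072, 858 and 1386 normalized counts in ENCDCs and 5.83, 6.89, 42.4 and 51.5 in gut cells (log2 fold change 5.25 ± 0.54 SE, edgeR adjusted p = 2.04e-05). *Rims2*, a full-length Rim scaffold, gave 198, 200.3, 194 and 217 normalized counts in ENCDCs and 31.1, 32.5, 51.3 and 3.96 in gut cells (log2 fold change 2.76 ± 0.53 SE, edgeR adjusted p = 0.00172). In gut libraries *Cplx1* did not exceed 5.92 normalized counts, while *Rims3* was clearly lower in gut replicates 1 and 2 than in gut replicates 3 and 4.

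*Rab3a*, the small GTPase that brings vesicles to Rim proteins, gave 541, 652, 576 and 503 normalized counts in ENCDCs and 173, 149, 123.3 and 192 in gut cells (log2 fold change 1.83 ± 0.18 SE, edgeR adjusted p = 1.51e-05). *Rab3d*, the form of exocrine granules, gave 201, 331, 609.5 and 553 normalized counts in ENCDCs and 231, 130.0, 249 and 170.3 in gut cells (log2 fold change 1.12 ± 0.34 SE, edgeR adjusted p = 0.0231). ENCDC replicate 1 lay inside the gut range for *Rab3d*, and the call was lost without ENCDC replicate 4, gut replicate 2 or gut replicate 4. *Rab3c* was higher (2.06) and *Rab3b* was not called (0.63). *Rims4* was higher (3.32), on 20.1 normalized counts in ENCDC replicate 3 and 74.1 to 101 in the others. Its call was lost with replicate number as a block in the fit (edgeR adjusted p = 0.0577). *Rims1* was not called (-0.59).

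The Unc13 priming factors held a sharp contrast within a family. *Unc13a* (Munc13-1), the main priming factor of synapses, gave 184, 157, 196 and 264 normalized counts in ENCDCs and 46.6, 36.4, 60.2 and 81.2 in gut cells (log2 fold change 1.83 ± 0.32 SE, edgeR adjusted p = 0.000886). *Unc13b* (Munc13-2) gave 576, 491, 283 and 957 normalized counts in ENCDCs and 244, 142, 289 and 228 in gut cells (log2 fold change 1.35 ± 0.34 SE, edgeR adjusted p = 0.00852). Its groups overlapped, with ENCDC replicate 3 inside the gut range. *Unc13d* (Munc13-4), known for granule release from blood cells, gave 1.02, 0, 0 and 0 normalized counts in ENCDCs and 232, 204, 104 and 89.1 in gut cells. It had 1 count over the 4 ENCDC libraries and 641 over the gut libraries, a ratio of 641 with an exact 95% interval of 115 to 25357 that covers counting error only (edgeR adjusted p = 5.90e-06). *Unc13c* was not called, and 32.5 of its ENCDC normalized counts lay in replicate 2 against 2.03 at most in the others. Per kilobase, *Unc13d* made up 63.5% of Unc13 level in gut cells and 0.135% in ENCDCs. This share depends on the exon lengths used, 4679 bases for *Unc13d* and 22746 for *Unc13b*. Before division by length, the gut mean was 157 normalized counts for *Unc13d* and 226 for *Unc13b*. *Unc13a* shares 495 exon bases with *Colgalt1*, a more abundant gene on the opposite strand.

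**Figure D3:**
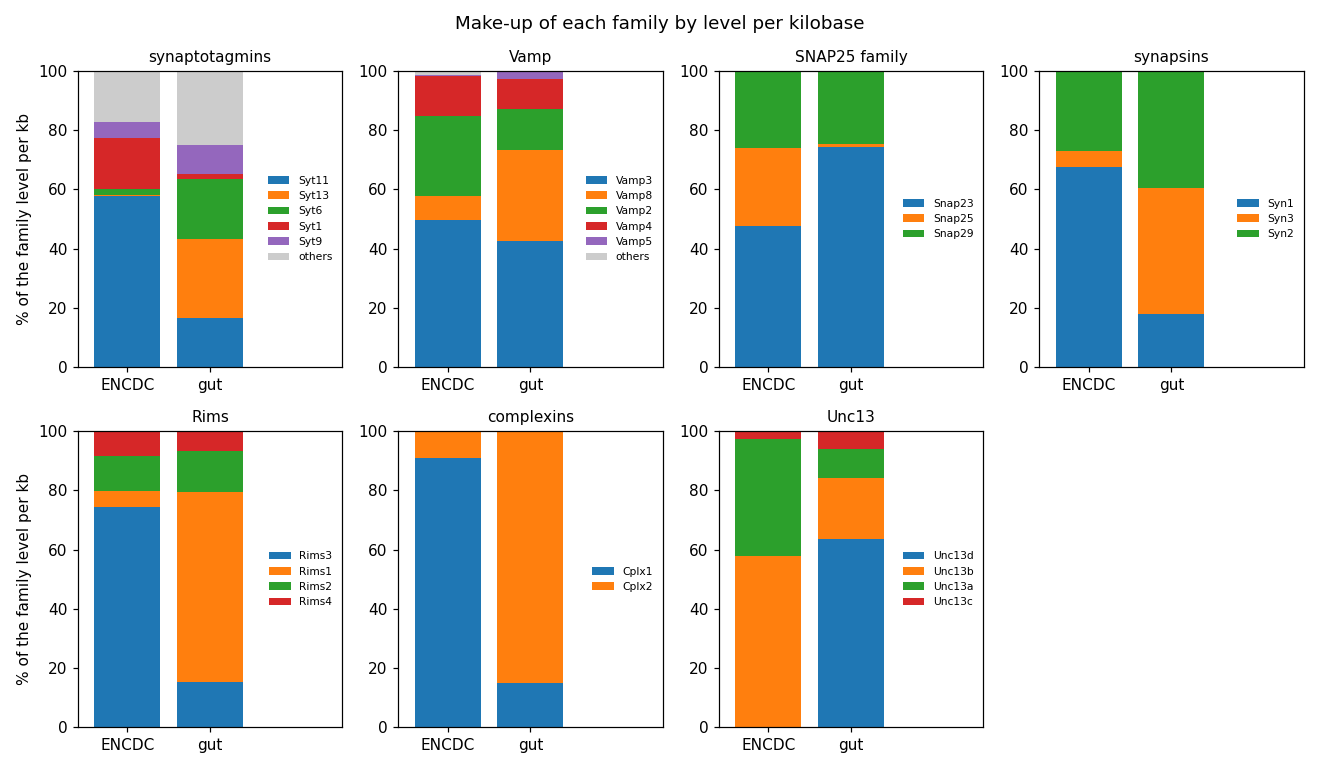
Make-up of 7 families by level (normalized counts per kb of exon), as the mean share over 4 libraries of each group; up to 5 genes are coloured and the rest are grey. *Syt11* fills 57.7% of the synaptotagmin bar in ENCDCs, *Cplx1* 90.8% of the complexin bar, and *Unc13d* 63.5% of the Unc13 bar in gut cells.

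The shares of the small families were as uneven. *Cplx1* held 90.8% of complexin level in ENCDCs and *Cplx2* 84.9% in gut cells, where the summed level was 8.49 per kb against 111 in ENCDCs. *Rims3* held 74.3% of Rims level in ENCDCs and *Rims1* 64.1% in gut cells. *Syn1* held 67.6% of synapsin level in ENCDCs, and the synapsin sum was 170 ± 43.3 per kb there (SD, n = 4) and 7.88 ± 3.39 in gut cells (SD, n = 4). Summed SV2 level was 83.3 ± 19.0 per kb in ENCDCs and 88.8 ± 6.46 in gut cells, with *Sv2a* leading in both groups (84.6% and 70.4%).

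Ratios of 2 related genes inside a library do not depend on how libraries are scaled, so 15 pairs were compared. The pairs were chosen with the levels of each gene known, so the ratios are given as a description, with no test. They set a gene known from synapses against a relative, apart from *Cplx2*/*Cplx1* and *Rims2*/*Rims3*, and some share a gene. The groups did not overlap for 12 of the 15. In 11 of the 12 the ratio was higher in ENCDCs, and *Cplx2*/*Cplx1* was lower. For 3 of them, *Snap25*/*Snap23*, *Vamp2*/*Vamp3* and *Vamp2*/*Vamp8*, the single genes were already separate in opposite directions, so the ratio had to separate too. *Snap25* over *Snap23* was 53.0-fold higher in ENCDCs, with log2 ratios of -1.49 to 0.33 in ENCDC libraries and -7.60 to -4.24 in gut libraries. *Syp* over *Synpr* was 47.5-fold higher, *Syt1* over *Syt7* 44.5-fold, and *Sv2a* over *Sv2b* 10.2-fold, the last with a wide ENCDC range of 1.71 to 7.43 on the log2 scale. The log2 difference of *Sv2a*/*Sv2b* was 2.15 without ENCDC replicate 3 and 4.06 without ENCDC replicate 1.

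*Vamp2* over *Vamp8* was 7.36-fold higher in ENCDCs and *Vamp2* over *Vamp3* 1.65-fold, with log2 ratios of the latter from -0.58 to -0.35 in ENCDC libraries and from -1.45 to -0.99 in gut libraries. Among target membrane genes, *Stx1a* over *Stx3* was 4.60-fold higher. *Syt11*/*Syt17* and *Syn1*/*Syn3* were also separate between the groups. The ranges of *Rab3a*/*Rab3d*, *Unc13a*/*Unc13b* and *Rims2*/*Rims3* in the 2 groups overlapped, the last through gut replicate 4.

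**Figure D4:**
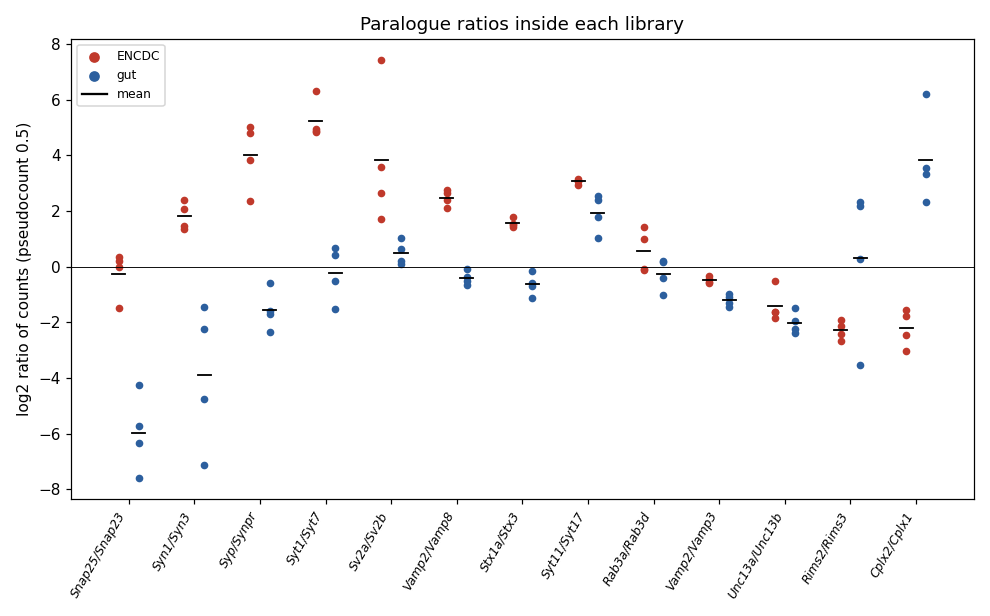
Log2 ratio of counts of 13 gene pairs inside each library (pseudocount 0.5), for ENCDC (red) and gut (blue) libraries, ordered by the difference; short black lines are means. The groups do not overlap for 10 of these pairs, and *Snap25*/*Snap23* lies from -1.49 to 0.33 in ENCDCs and from -7.60 to -4.24 in gut cells.

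The gut level of the higher members, as a share of the ENCDC mean, varied. The source of the gut counts, gut cells or carried-over ENCDCs, was not tested. Gut levels of the 10 neural crest markers had a median of 2.13% of the ENCDC mean (0.550% to 27.9%). Those of the 10 pan-neuronal markers had a median of 2.35% (0.584% to 13.4%). Of the 30 higher members, 6 were under 5% in gut cells: *Syt1* (1.30%), *Cplx1* (1.35%), *Syn1* (1.40%), *Rims3* (2.62%), *Syt11* (3.50%) and *Snap25* (4.56%). Another 9 lay between 5% and 20%, and 15 were at 20% or more, among them *Rab3a* (28.0%) and *Stx1a* (30.6%).

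ENCDC replicate 3 was the lowest ENCDC library for 15 of the 30 higher members, 5 of the 16 lower and 7 of the 22 not called. The same count over all tested genes was not made. As a share of the mean of the other 3 ENCDC libraries, replicate 3 had a median of 87.0% over the 30 higher members. The lowest shares were those of *Rims4* (22.4%), *Snap25* (28.6%) and *Syt4* (37.5%), and the highest those of *Rab3d* (169%), *Syt16* (157%) and *Stx1a* (119%). The pan-neuronal markers had a median of 84.0% on the same measure (58.6% to 116%), and the neural crest markers 84.9% (72.7% to 108%). Without this library edgeR called 31 members higher and 16 lower. The part of the mesenchymal RNA in replicate 3 in these values was not tested.

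Markers of other cell types were mostly lower in ENCDCs, but enteroendocrine markers were mixed. Blood and immune markers were lower in 11 of 12, with summed normalized counts of 584 to 1295 in ENCDC libraries and 54342 to 74693 in gut libraries, and *Ptprc*, the pan-leukocyte antigen, was at 0 in 3 of 4 ENCDC libraries. Epithelial markers were lower in 9 of 10 (295 to 572 against 2778 to 4087), endothelial in 5 of 8 (127 to 234 against 913 to 1450), mesothelial in 6 of 7 (70.2 to 303 against 2393 to 4442) and smooth muscle and mesenchymal in 12 of 12. Enteroendocrine markers had 3 higher and 7 lower of 12 tested, and sums of 2153 to 2664 against 1072 to 1525. The 3 higher were *Insm1* (log2 fold change 4.83), *Cck* (3.91) and *Chga* (2.42). Among the 7 lower, *Neurod1* and *Pax4* were at 0 in all ENCDC libraries. The part of these cell types in the levels of *Unc13d*, *Stx11*, *Vamp8*, *Syt13* and the other lower members was not tested.

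Release genes outside the symbol rule were read from 3 lists. The counts of each list stand beside shares of 17.1% higher and 20.9% lower among all 18866 tested genes. Of 23 tested SNAREs and Sec1/Munc18 proteins of general membrane traffic and SNARE recycling, 5 were higher and 1 was lower (median log2 fold change 0.10). The higher ones included *Snap47* (0.29), *Ykt6* (0.35), *Nsf*, the ATPase that takes spent SNARE complexes apart (0.34), and *Sec22a* (0.51), and the lower one was *Sec22b* (-0.57). The fifth, named after its value was seen, was *Napb*, the brain form of the Nsf adaptor, at 2.75 on 554 to 950 normalized counts in ENCDC libraries and 70.9 to 141 in gut libraries. *Napa*, the general form, was not called (0.01).

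Of 29 tested active zone and release genes, 7 were higher and 10 lower (median 0.06). *Cadps* (CAPS-1), which primes dense-core vesicles, was higher at 5.04, with 1193 to 1456 normalized counts in ENCDC libraries and 15.8 to 75.0 in gut libraries. The active zone scaffolds *Erc2* (3.17) and *Pclo* (2.85) and the membrane tether *Esyt1* (0.82) were also higher. *Esyt2* (-0.81), *Rab27a* (-1.65), *Ppfia4* (-1.88) and *Sytl2* (-3.97) were lower. Of 27 tested genes of vesicle proteins and recycling, 13 were higher and 2 lower (median 0.28). The most abundant higher ones were the proton pump subunits *Atp6v1b2* (0.51) and *Atp6v0a1* (0.59), the chaperone *Dnajc5* (0.29) and the endophilin *Sh3gl3* (1.10), and *Dnm1* (-1.61) was among the lower ones. All of these fold changes are on the log2 scale from the same edgeR fit.

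Promoter sequence from RefSeq (GRCm38, 250 bases before to 50 after the transcript start) was at hand for 54 of the 69 members. It was searched on both strands for 5 short motifs as a description of what members share. The RE1 element of the neuronal silencer REST (CAGCACCNNGGACAG, up to 1 mismatch) was found in 0.211% of all 27025 genes with a promoter sequence. Among the 54 members it was in 1, *Syn1*. The cyclic AMP response element TGACGTCA was found in 2.03% of all these genes and in 2 of the 54 members, *Syn1* and *Stxbp3*, which was not called. The stretch of *Syn1* that holds both elements is shown because *Syn1* was among the members with the highest fold change. RE1 and then the cyclic AMP element are in capitals (chrX:20921059-20921158, minus strand).
Syn1: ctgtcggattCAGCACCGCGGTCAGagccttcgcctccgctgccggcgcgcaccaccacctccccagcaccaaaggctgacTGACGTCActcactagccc

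The E-box CAGCTG lay in 9 of 21 higher members with a promoter, 3 of 13 lower members and 6 of 19 not called, against 18.3% of all 27025 genes in the promoter table, genes of every type included. The GC box GGGCGG lay in 20 of 21, 10 of 13 and 13 of 19 against 38.2% of all genes. The TATA box TATAAA lay in 0 of 21, 2 of 13 and 2 of 19 against 15.7%. None of the 5 motifs contains another. *Cplx1* (chr5:108550077-108550136, minus strand) and *Stx1a* (chr5:135023422-135023481, plus strand) are shown as higher members with an E-box, in capitals, upstream of the start.
Cplx1: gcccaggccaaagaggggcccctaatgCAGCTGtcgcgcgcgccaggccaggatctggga
Stx1a: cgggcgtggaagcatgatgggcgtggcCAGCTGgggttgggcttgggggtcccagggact

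The study drew lists of predicted targets, among genes present in ENCDCs, for 5 miRNAs that it chose in these cells. Because presence in ENCDCs was a condition, genes such as *Unc13d* could not be listed, and the directions of listed members are a description only. Of the tested members, 27 were on at least 1 list (14 higher, 4 lower, 9 not called) and 41 on none (16 higher, 12 lower, 13 not called). *Syt1*, the member with the highest fold change, was on 4 lists, those of miR-9, miR-27b, miR-137 and miR-488. The mature sequences (RefSeq) follow with the seed, bases 2 to 8, in capitals, and the 4 seeds differ.
miR-9-5p: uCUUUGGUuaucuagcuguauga
miR-27b-3p: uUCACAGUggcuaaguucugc
miR-137-3p: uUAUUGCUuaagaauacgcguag
miR-488-3p: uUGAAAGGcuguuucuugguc

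The lists were predicted with TargetScan, which uses seed matches, so a match in a listed member is no independent support. The 3' UTR of *Syt1* (2890 bases, mm10, GENCODE M21) held 1 match to each of these seeds, shown in capitals within 23 bases of the minus strand. They lie at chr10:108500447-108500469 (miR-488), chr10:108500310-108500332 (miR-137), chr10:108499065-108499087 (miR-27b) and chr10:108498268-108498290 (miR-9).
Syt1 site for miR-488: atatgggtCCTTTCAgtttccag
Syt1 site for miR-137: ttcttttaAGCAATAtgatgtgt
Syt1 site for miR-27b: tgtgtaacACTGTGActgccctg
Syt1 site for miR-9: caagtcctACCAAAGagaaggag

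Over these 4 miRNAs, 25 of the 36 pairs of a miRNA and a listed member had at least 1 seed match in the M21 3' UTR. Only matches to bases 2 to 8 were searched, and these matches too are no independent support for the lists. *Rims3*, on 3 lists and higher at a log2 fold change of 5.25, had 1 match for miR-9, 2 for miR-27b and 1 for miR-137. Levels of the miRNAs were not analysed here.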

How the data were processed

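Sorted ENCDCs and gut cells (4 libraries each, total RNA) were profiled by mRNA-seq with the SMARTer PCR cDNA and NexteraXT kits, which do not mark strand. The authors aligned reads with STAR 2.4.2a to mm10 and normalized them with PORT, per the submitters' notes and the study's methods, and deposited a whole-number count of reads per gene. The totals (13250893 to 13267220) are those left by that normalization and do not show the depth each library was sequenced to. The design text of the deposit names small RNAs and CPM, whereas its title and the study's methods describe mRNA, and whole-number totals of this size are not CPM, so the values were used as read counts.

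Groups came from the sample titles. A gene was tested when, in either group, its count averaged 3 or more and 3 or more libraries had a read, with edgeR 4.0.16 in R 4.3.3 (TMM factors, robust quasi-likelihood F test, Benjamini-Hochberg adjustment over all 18866 genes, calls at an adjusted p under 0.05). The study used voom and limma, which is among the alternatives here (limma 3.58.1, DESeq2 1.42.0, other factors, filters and thresholds, a replicate block, and leaving out each library). Standard errors are the log2 fold change divided by the square root of F. Levels per kb used the exon union of GENCODE M21, which matched all 69 members. Paralogue ratios used a pseudocount of 0.5 on counts, and their exact two-sided permutation test (smallest p 0.0286) enters only the account of settings, since the pairs were chosen with the levels of their genes known. Tables and plots were made with Python 3.11.15, pandas 2.3.3, scipy 1.17.1 and matplotlib 3.10.9, and the tests were tested on simulated counts. No library pair of a group agreed within sampling noise (chi-square per degree of freedom 9.98 or more), so all 8 were kept.

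The members, lists and tests were chosen with earlier results of these data known. Any member could be named, but some genes are not reported here and enter only the counts and sums. Values in every library were given for up to 4 called members of each role with the highest mean count, up to 3 called against most of their role, and the genes of the pairs described. Of the other lists, the most abundant called genes (4 at most in each direction) were named.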

Additional observations from a re-analysis of the deposited data

Results flagged for a closer look

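Among 136 sets of 4 libraries (each of the 68 tested members in each group), 9 held 1 library far from the other 3 by Dixon's test at the 95% level, a rate that chance gives in about 1 of 20 sets. All values are normalized counts.

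Low counts in ENCDCs made up 4 of them. *Syt12* was at 5.08 in ENCDC replicate 1 and 0 in the others. *Syt2* was at 15.3 in ENCDC replicate 2 and at most 2.03 in the others, and *Unc13c* was at 32.5 in ENCDC replicate 2 and at most 2.03 in the others. *Unc13d* was at 1.02 in ENCDC replicate 1, a single read, and 0 in the others. Without ENCDC replicate 2 *Unc13c* had a log2 fold change of -4.53 (edgeR adjusted p = 0.00491).

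The other 5 were better covered. *Stxbp2*, the Munc18 form of blood cells and epithelia, was at 980.0 in ENCDC replicate 3 and at 741 to 748 in the others. *Stx12* was at 2050 in ENCDC replicate 2 and at 1942 to 1961 in the others. In gut cells, *Vamp1* was at 139 in replicate 1 (others 62.0 to 74.3), *Rims1* at 160 in replicate 3 (others 76.8 to 82.2) and *Stx2* at 1554 in replicate 2 (others 1168 to 1226).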

How the results depend on the processing

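Of the 46 called members, 32 kept their call in all 16 alternatives (22 higher, 10 lower), 6 lost it only in a test against a 1.5-fold change, 8 lost it elsewhere, and 0 changed direction. Against a 1.5-fold change, members higher numbered 24 and lower 10, all genes higher 1450 and lower 2631, and other release genes higher 14 and lower 9; this follows from the larger difference asked for. Leaving out 1 library gave 26 to 31 members higher and 14 to 16 lower, 2683 to 3535 genes higher and 3310 to 4217 lower, 19 to 27 other release genes higher and 11 to 14 lower, and 10 to 12 of 15 pairs under 0.05 in the exact permutation test. That count was 12 with all libraries and with pseudocounts of 1 and 2, and it is no independent support, since the pairs were chosen with the genes' levels known. The other settings gave 28 to 30 members higher and 15 to 17 lower. Calls gained were *Syt14*, *Syt7*, *Rab3b*, *Unc13c* and *Stx3*, in 1 or more settings each. The cause of these changes was not tested.

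Deviations of same-numbered ENCDC and gut libraries correlated at -0.02 to 0.01 across genes, against -0.04 to 0.05 for libraries of different numbers. The labels do not say whether same-numbered libraries share bowels, and these correlations cannot settle it. With the replicate block, 28 members were higher and 16 lower, 2625 and 3305 of all genes, and 18 and 11 of the other release genes, and *Rims4* (edgeR adjusted p = 0.0577) and *Syn3* lost their calls. In a paired sign-flip test of the ratios the smallest exact p is 0.125, so no pair could pass.

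Low counts limit what can be said of the rarest members: *Syt15* could not be tested, and *Syt12*, *Stx19* and *Unc13c* rest on few counts.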
